A study of Mus musculus with 4 samples.

Results

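The cells described here were MB49 carcinoma cells with a high share of Adm and Ero1l transcripts, 797 of the 7973 carcinoma cells and of the 22115 barcodes of the series. MB49 is a mouse bladder carcinoma cell line that is grown as a tumour in mice. Tumours of male and of female mice had been dissociated and sorted with an antibody to CD45, the pan-leukocyte antigen encoded by Ptprc, and 1 single-cell library was made of each sex and sort, 4 in all, with the question of how tumours and their immune cells differ between the sexes. The labels give no treatment, host strain, age or number of animals for any group, and every tumour came from the same cell line. The libraries held 37705608 to 62273035 UMIs (unique molecular identifiers, each standing for 1 captured transcript) in 5152 to 6023 barcodes. Carcinoma cells were taken from the 2 CD45-negative libraries as barcodes with at least 2000 UMIs, at most 25% mitochondrially encoded UMIs, at least 3 UMIs of the keratins Krt8 and Krt18 together and 0 of Ptprc, which gave 4618 male and 3355 female cells.

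Members were the top 10% of those cells, both libraries pooled, by the UMIs of Adm and Ero1l together as a share of all UMIs of the cell. Adm and Ero1l therefore chose the cells, and their levels are a description. All values of other genes come from the same cells, with 1 library per group, so no test was made. Levels are counts of UMIs scaled to a total of 1e6 (CPM) of the UMIs summed over a group of cells, and the members were set against the other carcinoma cells of the same library. Ratios carry exact conditional 95% intervals, given in parentheses, and shares exact Clopper-Pearson 95% intervals. Both cover counting error only, treat UMIs as independent, and leave out the spread between tumours. The working name of these cells refers to hypoxia, but no oxygen level was measured, and they are called Adm Ero1l high cells here.

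Adm encodes adrenomedullin, a secreted peptide that acts on blood and lymph vessels through the receptor Calcrl with a Ramp partner. Ero1l (now Ero1a) encodes an oxidase of the endoplasmic reticulum that passes electrons from protein disulfide isomerase to oxygen while disulfide bonds form. Both are known targets of the hypoxia-inducible factors (HIF), heterodimers of an alpha subunit such as Hif1a with Arnt. When oxygen is plentiful, the Egln prolyl hydroxylases mark the alpha subunit, the von Hippel-Lindau protein binds it and it is degraded; when oxygen falls it persists and drives genes for glucose uptake, glycolysis, vessel growth and mitochondrial turnover. In tumours, cells far from vessels are known for this programme.

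HIF binds the core letters ACGTG or GCGTG, so stretches before the RefSeq start of 6 genes that ran high in these cells are shown. Each match on either strand is in capitals (CACGT and CACGC are the reverse strand). They are RefSeq promoters of GRCm38.p6 (mm10), up to 250 bases before that start, without bases that GENCODE M21 annotates as exon. The Ensembl genes Ero1l, Ankrd37 and P4ha2 begin farther upstream, at chr14:45318771, chr8:46005707 and chr11:54100095, so these stretches lie inside them. Adm lies at chr7:110627407-110627656, plus strand, Ero1l at chr14:45318573-45318702, minus strand, Bnip3 at chr7:138909520-138909756, minus strand, Ankrd37 at chr8:45999868-46000100, minus strand, P4ha2 at chr11:54100674-54100923, plus strand and Car9 at chr4:43506776-43506965, plus strand.
Adm: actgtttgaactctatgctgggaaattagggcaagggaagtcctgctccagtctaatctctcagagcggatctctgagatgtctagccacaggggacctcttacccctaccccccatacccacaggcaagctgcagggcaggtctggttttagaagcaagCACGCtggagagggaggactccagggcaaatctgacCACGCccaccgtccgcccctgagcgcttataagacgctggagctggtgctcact
Ero1l: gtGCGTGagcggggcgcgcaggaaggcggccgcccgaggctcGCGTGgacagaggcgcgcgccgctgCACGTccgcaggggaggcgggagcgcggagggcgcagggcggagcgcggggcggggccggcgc
Bnip3: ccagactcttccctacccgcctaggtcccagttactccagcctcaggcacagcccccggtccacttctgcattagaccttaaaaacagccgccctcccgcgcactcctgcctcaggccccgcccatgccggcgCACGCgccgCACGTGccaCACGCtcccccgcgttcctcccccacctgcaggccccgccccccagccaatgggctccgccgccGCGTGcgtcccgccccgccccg
Ankrd37: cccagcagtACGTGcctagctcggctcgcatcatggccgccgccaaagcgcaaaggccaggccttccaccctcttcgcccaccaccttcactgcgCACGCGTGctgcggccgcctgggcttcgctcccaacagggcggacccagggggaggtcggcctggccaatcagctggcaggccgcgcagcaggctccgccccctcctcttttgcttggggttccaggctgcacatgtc
P4ha2: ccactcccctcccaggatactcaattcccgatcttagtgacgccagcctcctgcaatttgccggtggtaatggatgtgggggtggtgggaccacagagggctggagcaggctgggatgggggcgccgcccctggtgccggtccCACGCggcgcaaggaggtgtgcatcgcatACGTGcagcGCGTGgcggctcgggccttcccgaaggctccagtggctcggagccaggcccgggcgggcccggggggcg
Car9: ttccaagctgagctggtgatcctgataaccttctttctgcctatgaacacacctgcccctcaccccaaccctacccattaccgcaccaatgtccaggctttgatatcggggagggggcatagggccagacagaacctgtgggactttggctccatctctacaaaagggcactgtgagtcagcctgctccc
In the Adm stretch 2 matches stood 90 and 54 bases before the start. In the Ero1l stretch there were 3, the farthest 128 bases before the start, and 120 exonic bases were left out. The Bnip3 stretch had 5 matches, 2 of which overlap in the palindrome in capitals. Ankrd37 and P4ha2 had 3 each, and in Ankrd37 2 of them overlap. The Car9 stretch, which leaves out 60 exonic bases, held 0, which says only that these letters are not in this window.

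Over the whole 250 bases before the start, 11226 of 27025 RefSeq promoters held either motif (41.5%). The share was 66.6% among the 2926 promoters of genes tested here, 73.1% (117 of 160) among genes higher in the Adm Ero1l high cells of both libraries and 61.2% (175 of 286) among genes lower in both. Among higher genes of the HIF, glycolysis and collagen lists described below it was 87.2% (34 of 39), a group that was picked for known HIF targets. A match is a description of letters and not a bound site.

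Of the male carcinoma cells 238 were Adm Ero1l high, 5.15% (4.53% to 5.83%), and of the female cells 559, 16.7% (15.4% to 18.0%). The female share was 3.23 times the male share (2.77 to 3.78). With 1 library of each sex, sex and library cannot be told apart. The members just inside the cut had 4040.64 CPM of both genes together and the first cell outside 4037.94, so the cut fell in an unbroken distribution and not in a gap. A total of 705 carcinoma cells (8.84%) had 0 UMIs of both genes.

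**Figure D1:**
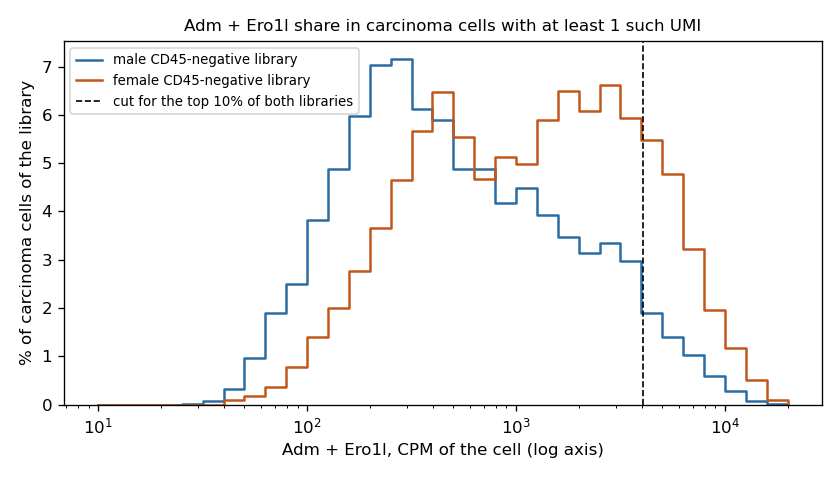
Share of Adm and Ero1l among the UMIs of each carcinoma cell (x axis, CPM of the cell, log axis) against the percentage of carcinoma cells of the library (y axis), for cells with at least 1 such UMI. The dashed line is the cut at 4040.64 CPM, and more of the female than of the male curve lies to its right (16.7% against 5.15%).

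Ero1l made up most of what chose the cells. In the male library Ero1l stood at 5465 CPM in the members and 609 in the other carcinoma cells, and Adm at 731 and 55.2. In the female library Ero1l stood at 5880 and 1014, and Adm at 654 and 121. Ero1l gave 88.2% of the rule UMIs of the male members and 89.99% of those of the female members. The median member held 48.5 Ero1l and 4 Adm UMIs in the male library and 57 and 5 in the female library. Adm outnumbered Ero1l in 3 male and 8 female members, and 40 and 81 members had no Adm UMI at all.

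The members were somewhat shallower than the other carcinoma cells, with a median of 9314 against 11591.5 UMIs in the male and 10080 against 11951 in the female library. Their median share of mitochondrially encoded UMIs was lower, 3.81% against 4.68% and 3.29% against 4.06%. The part of depth in the choice of cells was not tested, but when each cell was thinned to 2000 UMIs before the choice, 193 genes were higher and 291 lower in both libraries, against 211 and 362 below. Krt8 and Krt18 were near the level of the other cells: Krt18 stood at 1682 against 1638 CPM in the male and 1922 against 2071 in the female library.

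Across genes the Adm Ero1l high cells carried a HIF target and glycolysis programme together with low cell cycle and chemokine transcripts. Of 3789 genes with at least 50 UMIs over the carcinoma cells and at least 50 CPM in the higher group of each library, 211 (5.57%) were at least 1.5-fold higher in the members of both libraries and 362 (9.55%) at least 1.5-fold lower in both. None was past that fold in opposite directions. When members were chosen by Adm alone, 133 genes were higher and 172 lower in both. Taken alone, the male library had 402 (10.6%) higher and 672 (17.7%) lower, and the female library 237 (6.25%) and 406 (10.7%). The median log2 ratio of all these genes was -0.09 (male) and -0.03 (female).

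**Figure D2:**
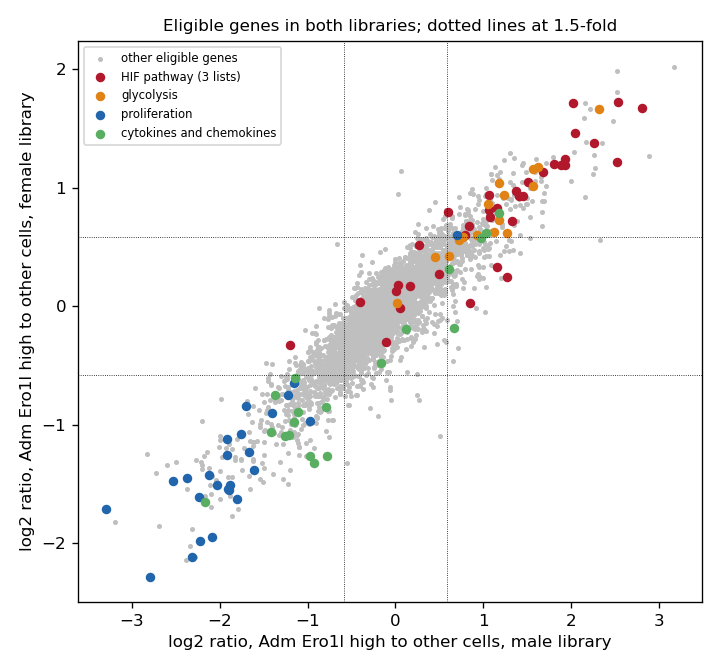
Log2 ratio of Adm Ero1l high to other carcinoma cells in the male library (x axis) and in the female library (y axis), 1 point per gene of the 3789, with 4 groups of genes in colour and dotted lines at 1.5-fold. HIF pathway and glycolysis genes lie mostly at the upper right, proliferation and cytokine genes at the lower left, and no gene lies past both lines in opposite corners.

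The ligands were led by Vegfa, the main growth factor for blood vessels. Vegfa stood at 1096 CPM in the male members and 413 in the other male cells, a ratio of 2.65 (2.54 to 2.76), and at 1323 and 693 in the female library, 1.91 (1.86 to 1.96). The other female cells were thus already above the other male cells. Edn1, which encodes the vasoconstrictor endothelin 1, stood at 36.2 against 2.83 CPM in the male library (86 and 162 UMIs) and at 43.3 against 16.4 in the female. Pgf, placental growth factor, stood at 33.7 against 4.49 and at 20.2 against 3.55. Adm2, which encodes the adrenomedullin relative intermedin, was 5.11-fold (4.36 to 5.96) higher in the male and 2.60-fold (2.33 to 2.89) higher in the female members. Not all ligands on the list differed so: Vegfb was at 71.2 against 70.7 CPM and 76.4 against 70.1. Pdgfb was at 34.6 against 79.1 in the male and 154 against 193 in the female library.

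Of the 13 ligands on the list, all measured, 6 were at least 1.5-fold higher and 0 lower in both libraries. Lists were counted over genes with at least 20 UMIs in each library, where 4.92% of 14139 genes were higher and 12.9% lower in both, with a median log2 ratio of -0.17 (male) and -0.11 (female). At that minimum a low gene has few UMIs in the 238 male members, so each list was also counted, by a choice made after the data were seen, over its genes with at least 50 UMIs and 50 CPM in each library. By that count 2 of 8 ligands were higher and 0 lower. Ligand transcripts summed to 3078 CPM in the male members and 1498 in the other male cells, and to 3674 and 2708 in the female library.

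Among the genes that sense oxygen and set HIF activity, the alpha subunits themselves were not higher. Hif1a stood at 167 CPM in the members and 221 in the other cells of the male library, and at 191 and 186 in the female. Epas1, which encodes HIF-2 alpha, was at 8.01 against 12.4 and 6.55 against 11.4 CPM. Of the other genes on the list, 8 were higher in both libraries. Egln1, the prolyl hydroxylase that marks Hif1a for degradation, stood at 568 against 153 CPM, 3.71-fold (3.50 to 3.92), and at 470 against 207, 2.28-fold (2.18 to 2.38). Egln3, another hydroxylase, was at 1640 against 909 in the male library but at 1123 against 1103 in the female. Bhlhe40, a transcriptional repressor gene that HIF is known to induce, was at 533 against 575 and 667 against 822. Mxi1, which encodes a Myc antagonist, stood at 159 against 33.4 and at 119 against 45.9. Ankrd37, an ankyrin repeat gene and HIF target, stood at 98.6 against 17.2 and 55.1 against 23.8. Kdm3a, a histone H3 lysine demethylase gene, was 2.22-fold (1.94 to 2.54) and 1.77-fold (1.63 to 1.93) higher, and Cited2, whose product competes with HIF for its coactivator, 2.10-fold (1.98 to 2.23) and 1.69-fold (1.63 to 1.74). Of all 15 genes, 8 were higher and 1, Epas1, lower in both libraries; over the better counted 10 it was 6 and 0.

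Among the intracellular targets 17 of 20 measured genes were higher, and 15 of the 17 better counted, with 0 lower. Ndrg1, a differentiation and stress gene, stood at 4501 CPM in the male members against 1178 in the other cells, 3.82-fold (3.74 to 3.90), and at 2903 against 1271 in the female library, 2.28-fold (2.24 to 2.32). Bnip3, which encodes a mitochondrial receptor for mitophagy, stood at 278 against 48.2 and at 218 against 66.1 CPM. Its relative Bnip3l was 2.74-fold (2.498 to 2.999) and 1.90-fold (1.78 to 2.03) higher. Car9, the cell-surface carbonic anhydrase that exports acid, stood at 375 against 92.0 in the male library and at 96.4 against 29.4 in the female. The male level of Car9 in members was thus above the female level, while both members' levels were above their own rest. Glycogen genes were among them: Gys1, glycogen synthase, was 4.11-fold (3.73 to 4.52) and 2.75-fold (2.56 to 2.96) higher, and Gbe1, the branching enzyme, 3.49-fold (3.14 to 3.87) and 2.29-fold (2.09 to 2.52). Hilpda and Plin2, both of lipid droplets, were at 273 against 95.7 and 357 against 171 CPM in the male library, and at 294 against 142 and 439 against 230 in the female. Tmem45a, a transmembrane protein gene, stood at 198 against 28.3 and 180 against 56.4. Higd1a, whose product sits in the mitochondrial inner membrane, was 3.81-fold (3.54 to 4.10) and 2.36-fold (2.21 to 2.52) higher. Ddit4, an inhibitor of mTOR signalling on the same list, was not past the fold, at 405 against 391 and 413 against 417 CPM. Nor was Anxa2, with Ndrg1 the most abundant of the list, at 3770 against 2680 and 3539 against 2942 CPM. The list summed to 12584 CPM in the male members and 5593 in the other cells, 2.25-fold (2.22 to 2.28), and to 10076 and 6177 in the female library, 1.63-fold (1.62 to 1.65).

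**Figure D3:**
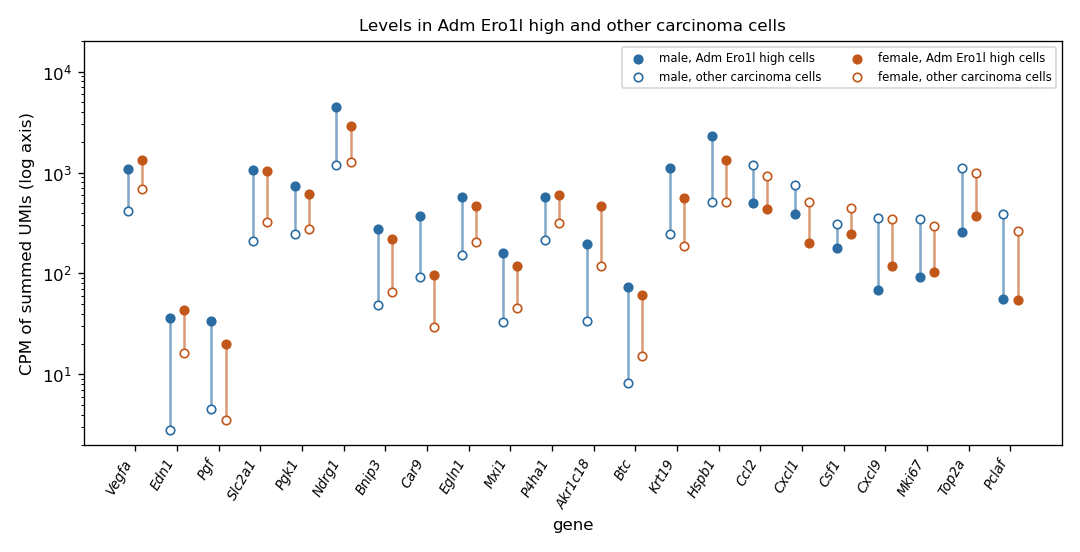
CPM of summed UMIs (y axis, log axis) of a selection of the genes named in the text (x axis). Filled points are Adm Ero1l high cells and open points other carcinoma cells of the male and female library, 1 point per library and group. Named genes that were not past the fold in both libraries, such as Vegfb, Hif1a, Egln3 and Ddit4, are not shown. Filled points stand above open ones from Vegfa to Hspb1 and below them from Ccl2 to Pclaf, in both libraries.

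Transcripts for glucose uptake and glycolysis were higher at several steps. Slc2a1, the glucose transporter GLUT1, stood at 1053 CPM in the male members against 211 in the other cells, 5.00-fold (4.79 to 5.22), and at 1025 against 324 in the female library, 3.17-fold (3.07 to 3.27). Both members' groups thus stood close to each other and far above both rests. Hk1, which traps glucose as a phosphate, was at 276 against 122 and 245 against 148. Hk2, the more abundant hexokinase, was below the fold in both libraries, at 388 against 283 and 416 against 313. Gpi1, the next enzyme, was 3.07-fold (2.95 to 3.19) and 2.26-fold (2.19 to 2.33) higher. Aldoa, the abundant aldolase, stood at 4317 against 1838 and 3940 against 2060. Pgk1, which makes the first ATP of the pathway, stood at 728 against 246 and 618 against 277. Ldha, which reduces pyruvate to lactate, was at 1858 against 1219 in the male library, 1.52-fold (1.48 to 1.57), and at 1851 against 1381 in the female, 1.34-fold (1.31 to 1.37), so it did not pass the fold in both. Tpi1 and Pkm also passed it in the male library only, and Pfkfb3 was at 35.8 against 49.7 and 24.0 against 33.7. Slc16a3, the lactate exporter, had 4 and 8 UMIs in the members, too few to compare. Gapdh, whose many pseudogenes can share its reads, was counted at 61.9 CPM or less and is uncertain here. Of 23 genes 11 were higher and 0 lower in both libraries, all 11 among the 16 better counted. The list summed to 15912 CPM in the male members and 7960 in the other cells, and to 14955 and 9035 in the female library.

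Of 14 genes of collagen modification and crosslinking 3, all of them hydroxylases that need oxygen, were higher in both libraries and 1 was lower. P4ha1 and P4ha2, alpha subunits of prolyl 4-hydroxylase, were higher: P4ha1 stood at 571 against 216 CPM in the male and 604 against 315 in the female library, and P4ha2 at 170 against 49.3 and 188 against 78.8. Plod2, a lysyl hydroxylase, stood at 347 against 140 and 245 against 139. P4ha3, the remaining alpha subunit, went the other way, at 51.8 against 164 and 48.4 against 106. Serpinh1, the collagen chaperone, was at 426 against 471 and 367 against 418. The collagen gene Col1a1 was at 2568 against 3455 CPM, 0.743 of the other cells (0.725 to 0.763), and at 2228 against 3025, 0.736 (0.723 to 0.7499).

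The chaperones and foldases of the endoplasmic reticulum, where Ero1l works, did not share its difference. Of 18 genes 1 was higher and 1 lower in both libraries. Hspa5, the main chaperone of that compartment, was at 3230 against 2393 and 3938 against 2789 CPM, a ratio of 1.35 (1.32 to 1.38) and 1.41 (1.39 to 1.43). Dnajb9, its cochaperone, was the higher one, at 245 against 119 and 340 against 212. In the integrated stress response 6 of 22 genes were higher and 1 lower, and 5 and 0 of the better counted 15. Ddit3, which encodes the stress factor CHOP, stood at 80.5 against 16.6 and 77.3 against 34.5 CPM. Trib3, a target of CHOP, was 2.94-fold (2.53 to 3.41) and 1.85-fold (1.67 to 2.04) higher, while Atf4, the factor at the head of the response, was at 648 against 459 and 922 against 759.

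By the ratio of the library nearer to 1, the 10 highest genes outside the rule were Btc, Akr1c18, Tnfrsf9, Bnip3, Car9, Cd68, Tmem45a, Cryab, Slc2a1 and Krt19, and the next were Dynap, Gys1, Hspb1, Adm2, Mxi1, 2610528A11Rik, Srfbp1, Zfand2a, Hspa1b and P4ha2. Btc, the growth factor betacellulin, stood at 73.7 CPM against 8.22 in the male library, 8.98-fold (7.50 to 10.7), and at 61.5 against 15.2 in the female, 4.05-fold (3.54 to 4.64). Its UMIs came from 63 of the male and 154 of the female members. Akr1c18, an aldo-keto reductase that inactivates progesterone, stood at 194 against 33.8 and at 468 against 118. It was patchy as well: 73 male and 302 female members had a UMI, and 1 male cell held 18.0% of the male members' UMIs. Tnfrsf9, the receptor 4-1BB best known from T cells, stood at 174 against 30.3 and at 93.4 against 26.8, while the 10 lymphocyte markers summed to 2.95 and 2.86 CPM in the members.

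Cd68, a lysosomal protein gene that is used as a macrophage marker, stood at 131 against 29.3 and at 228 against 69.7 CPM. The other macrophage markers did not move with it. C1qa had 1 UMI in the male and 3 in the female members, Lyz2 3 and 17, and Cd14 was at 50.6 against 101 and 63.3 against 87.3 CPM. Of the 9 measured macrophage markers Cd68 was the only one higher in both libraries, and C1qc, with 1 and 3 UMIs, was called lower. All 13 summed to 193 CPM in the male members against 146 and to 312 against 176 in the female library, most of it Cd68, and 4 and 2 of them were at 0 in the members. Ctsl, which encodes the lysosomal protease cathepsin L, was also higher, 2.83-fold (2.71 to 2.96) and 1.88-fold (1.83 to 1.94).

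Several heat shock genes were also higher; no list of them was made, and these were gathered after their values were seen. Hspb1, which encodes a small heat shock protein, stood at 2317 CPM in the male members against 513 and at 1322 against 507 in the female library. Cryab, the small heat shock protein alpha B crystallin, stood at 328 against 70.8 and 336 against 106. Hspa1b, the inducible HSP70, stood at 517 against 69.8, 7.41-fold (6.94 to 7.90), in the male library and at 239 against 99.2, 2.41-fold (2.26 to 2.56), in the female, with 13.8% of the male members' UMIs in 1 cell. Hsph1 was 4.46-fold (4.11 to 4.82) and 1.89-fold (1.77 to 2.02) higher. Dnajb1, an HSP40 cochaperone gene, was 2.12-fold (1.999 to 2.24) and 1.45-fold (1.40 to 1.51) higher, below the fold in the female library. These genes also respond to enzymatic digestion. Of the immediate early genes that do so, Fos stood at 2510 against 1352 CPM in the male library and at 2231 against 2008 in the female, ratios of 1.86 (1.81 to 1.91) and 1.11 (1.09 to 1.13). Jun stood at 2220 against 1160 and 2030 against 1688. Of 17 immediate early and dissociation genes 2, both heat shock genes, were higher in both libraries and 1 was lower. Their part in the heat shock values was not tested. Krt19, a simple-epithelium keratin, stood at 1100 against 248 and 560 against 186.

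The lower genes were led by DNA replication and mitosis. By the library nearer to 1, the 10 lowest were Pclaf, Pbk, Uhrf1, Tyms, Aurkb, Mcm5, Rrm2, Spc24, Nuf2 and Cdc20. Pclaf, which encodes a factor that binds the replication clamp PCNA, stood at 55.6 CPM in the male members against 384 in the other cells, a ratio of 0.145 (0.121 to 0.172), and at 54.3 against 264 in the female library, 0.206 (0.184 to 0.230). Rrm2, a subunit of ribonucleotide reductase, stood at 118 against 498 and 104 against 401. Top2a, the topoisomerase of dividing cells, stood at 255 against 1112 and 368 against 991, and Mki67 at 92.7 against 343 and 103 against 293. Of 28 proliferation genes 27 were lower in both libraries. The exception was Ccnd2, a D-type cyclin, at 52.3 against 32.1 and 76.8 against 50.8, while its relative Ccnd1 was at 346 against 680 and 289 against 566.

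Per cell, the proliferation list had a median of 1185 CPM in the members of either library, with quartiles of 812 to 1808 (male) and 814 to 1940 (female). In the other cells the medians were 3547 and 3298, with quartiles of 1379 to 9707 and 1165 to 8658. Of the other cells 80.02% of the male and 74.3% of the female ones lay above the members' median. The intracellular HIF targets were far more apart: only 1.71% of the other male cells and 5.69% of the other female cells lay above the members' medians of 12404 and 9935 CPM. Glycolysis gave 3.95% and 6.80%, and the secreted ligands 14.1% and 30.7%. Thinned to 2000 UMIs per cell, the shares for the intracellular targets were 2.10% and 9.69%. The value of that list is a sum of CPM, in which its abundant genes Ndrg1 and Anxa2 weigh most.

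Members were also chosen again by the same rule among carcinoma cells with 0 UMIs of Mki67 and Top2a. Of 3600 genes there, 160 were higher and 226 lower in both libraries. That setting left out most cells: 81.0% of the other male and 77.7% of the other female cells had such a UMI. Of the male and female members 60.1% and 63.7% had one. The newly chosen members were 6.04% and 14.4% of the cells left, so ratios in this setting rest on fewer cells. There the log2 ratio of Pclaf was -0.88 (male) and -0.40 (female), against -2.79 and -2.28 in all carcinoma cells. Aurkb, Rrm2, Pbk, Tyms, Mcm5 and Nuf2 changed direction in at least 1 library, but the interval of each reversed value spanned 0. For Rrm2 it ran from -0.24 to 0.66 (male) and -0.16 to 0.66 (female), and for Aurkb from -2.58 to 2.59 and -2.35 to 1.86. The setting itself leaves out cells by their cell cycle transcripts, so it cannot decide whether these genes reverse. Slc2a1, at 2.22 and 1.48, Ndrg1, at 1.59 and 0.92, and Bnip3, at 1.89 and 0.86, were past 1.5-fold in both libraries. Vegfa, at 1.08 and 0.47, was past it in the male library and below it in the female. The same held for Ankrd37 (0.25 in the female library), Mxi1 (0.49), Bnip3l (0.41), Plin2 (0.52) and Hsph1 (0.54), and for all 3 higher genes of the collagen list, P4ha1 (0.31), P4ha2 (0.42) and Plod2 (0.14). Aldoc was below it in both, at 0.44 and 0.26. Of 57 higher genes followed across all settings 33 were past the fold in both libraries there, 48 in the male and 36 in the female; of 29 lower genes 13 were.

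Chemokine and cytokine transcripts were lower at 16 of 28 genes, and at 12 of the 19 better counted, and higher at 2. Ccl2, which draws monocytes, stood at 498 CPM in the male members against 1187, a ratio of 0.420 (0.396 to 0.445), and at 436 against 933 in the female library, 0.467 (0.449 to 0.486). The neutrophil chemokine Cxcl1 stood at 392 against 745 and 202 against 506, and Cxcl2 at 330 against 568 and 146 against 352. Cxcl9 and Cxcl10 are interferon-induced ligands of Cxcr3, a chemokine receptor of T cells. They stood at 68.3 against 354 and 32.9 against 148 in the male library, and at 119 against 347 and 43.8 against 138 in the female. Csf1, the macrophage growth factor, was at 178 against 308 and 246 against 442. Il33, an alarmin, was at 206 against 456 and 62.3 against 122. Among cells without Mki67 and Top2a, the log2 ratio of Cxcl2 turned to 0.27 in the male library and that of Il33 to 0.46 in the female, while Ccl2 was at -0.73 and -1.37 and Cxcl9 at -3.75 and -1.65. The higher pair were Inhba and Ereg. Inhba, which encodes the activin A subunit, was at 1114 against 492 and 1059 against 614. Ereg, the growth factor epiregulin, was at 199 against 97.9 and 227 against 148. Among cells without Mki67 and Top2a neither was past the fold in both libraries, with log2 ratios of 0.46 and 0.71 for Inhba and 0.57 and 0.29 for Ereg. Because abundant genes such as Inhba, Spp1 and Mif ran the other way, the sum of the list hardly differed, at 8950 against 9110 and 8992 against 9683 CPM.

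Interferon genes as a group did not follow Cxcl9 and Cxcl10. Of 22 genes 2 were higher and 2 lower in both libraries. Ifit1, an antiviral RNA-binding protein gene, was at 151 against 65.0 and 213 against 132, but at log2 ratios of -0.31 and 0.25 among cells without Mki67 and Top2a. The interferon-gamma-induced GTPase gene Iigp1 was at 49.7 against 123 and 115 against 198. Of 14 genes of MHC class I presentation 0 were higher and 1, Psmb10 of the immunoproteasome, lower.

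The nuclear-encoded respiratory chain was lower at 5 of 28 genes, where 12.9% of all measured genes were, and higher at 0. Over its 25 better counted genes it was 5 and 0, where 9.55% of all such genes were lower. The median log2 ratio of the list was -0.41 (male) and -0.38 (female), against -0.17 and -0.11 over all measured genes. Ndufa4, a cytochrome oxidase subunit, stood at 101 against 236 and 80.1 against 152 CPM, Sdhb of complex II at 50.6 against 119 and 68.9 against 127, and Atp5g1 of the ATP synthase at 229 against 459 and 202 against 345. Among cells without Mki67 and Top2a these genes were no longer past the fold in both libraries. The log2 ratio there was -0.45 and -0.19 for Ndufa4 and -0.38 and -0.24 for Atp5g1. Sdhb was still past the fold in the male library, at -1.22 (-2.10 to -0.46), but not in the female, at -0.14. Of the 12 measured mitochondrially encoded transcripts 1 was lower, mt-Cytb, at 5960 against 9998 and 4367 against 7772. Cholesterol synthesis was lower at 2 of 20 genes and at 0 of the 11 better counted, not above the 12.9% of all measured genes. Of 20 NRF2 and aldo-keto reductase genes 2, Akr1c18 and Gclc, were higher and 0 lower.

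**Figure D4:**
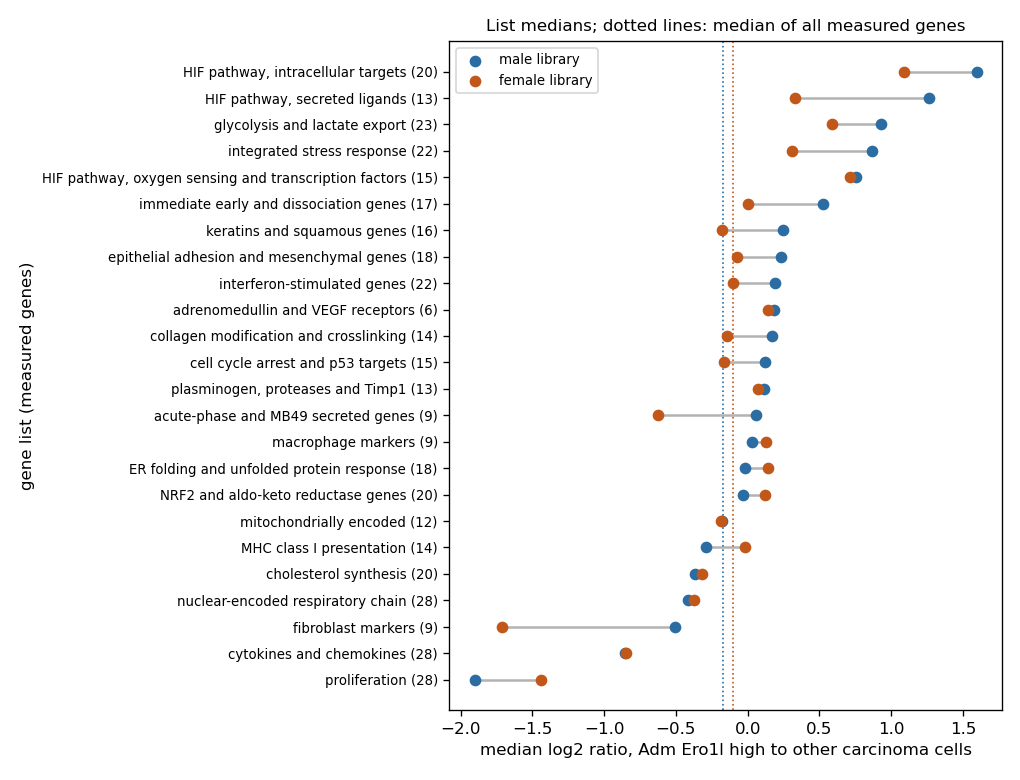
Median log2 ratio of Adm Ero1l high to other carcinoma cells (x axis) for each gene list with at least 5 measured genes (y axis, number of measured genes in parentheses), 1 point per library, with dotted lines at the median of all 14139 measured genes. The 3 HIF lists, glycolysis and the integrated stress response lie to the right in both libraries, and proliferation and cytokines to the left.

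Other lists were mixed or low. Fibroblast markers were lower at 3 of 9 genes, where 12.9% of all measured genes were, and at 0 of the 3 better counted. Among the lower ones was Col1a2, at 5.90 against 36.7 and 19.2 against 184 CPM. The sum of the fibroblast markers was 3049 against 4038 and 2551 against 3798. The 9 endothelial markers summed to 14.7 against 26.9 and 17.3 against 23.6 CPM, and the 7 neutrophil markers to 6.32 against 7.55 and 16.3 against 9.06. Of those marker lists 4 and 1 endothelial, 5 and 5 neutrophil, 9 and 8 lymphocyte and 3 and 1 fibroblast genes were at 0 in the male and female members. The nuclear-retained RNA Malat1 was 1.87-fold (1.79 to 1.95) and 1.54-fold (1.496 to 1.58) higher in the members. Neat1, also nuclear and a known HIF target, was 3.17-fold (2.88 to 3.47) and 1.60-fold (1.48 to 1.73) higher. Among cells without Mki67 and Top2a, Malat1 had log2 ratios of 0.44 and 0.24, below the fold in both libraries. Neat1 was there at 0.70 and 0.25, below the fold in the female library. The part of RNA quality in the other values was not tested.

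The differences did not start at the cut. When all carcinoma cells were set in 10 bins by the Adm and Ero1l share, with cells at 0 as a bin of their own, the intracellular HIF targets went from 4258 CPM at 0 to 5527 in bin 5 and 12840 in bin 10 of the male library, and from 4921 to 5509 and 10177 in the female. Glycolysis went from 4828 to 16011 and from 6059 to 15072. Bnip3 went from 6.27 to 293 and from 16.5 to 220 CPM. Proliferation was at 8828 CPM in bin 1 of the male library and 7968 in bin 3 of the female, its highest values, and at 2153 and 2381 in bin 10. Car9 in the male library did not rise at the top, with 396 CPM in bin 9 and 365 in bin 10. The cells at 0 were shallower, with medians of 6706.5 and 5468 UMIs, and their proliferation sums of 5160 and 4965 CPM lay below those of bin 1.

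**Figure D5:**
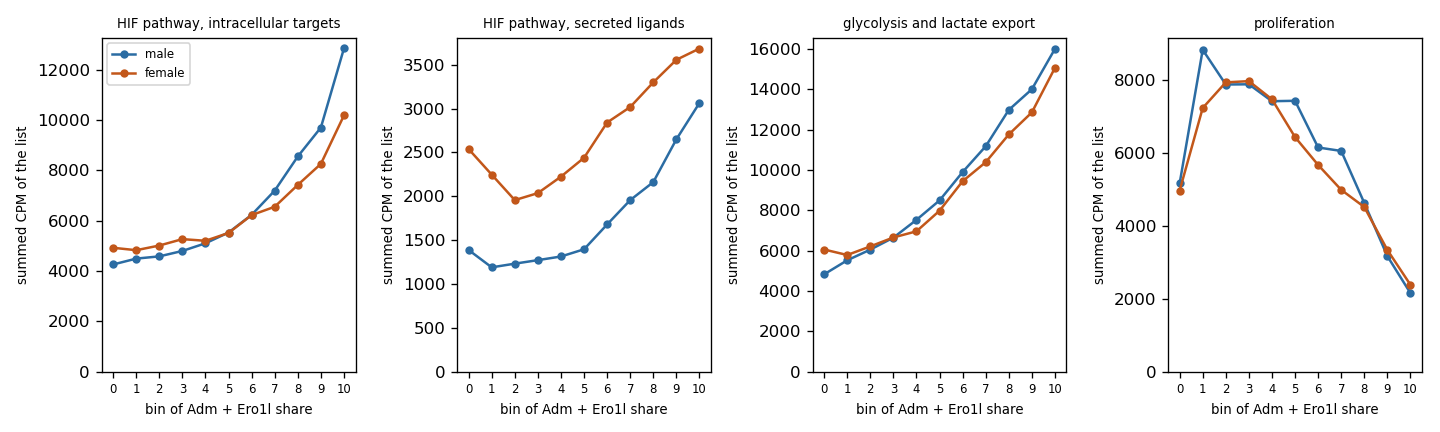
Summed CPM of 4 gene lists (y axes) in carcinoma cells binned by their Adm and Ero1l share (x axes, 0 for cells with no such UMI, then 10 bins of rising share), 1 point per bin and library. HIF targets and glycolysis climb through the bins to 12840 and 16011 CPM in bin 10 of the male library, while proliferation goes down to 2153.

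Cells on both sides of the cut were close in HIF targets and differed in their summed cell cycle transcripts. The 100 cells just inside it had 1123 CPM of Vegfa, 670 of Slc2a1, 206 of Bnip3 and 2787 of Ndrg1. The 100 cells just outside had 1048, 662, 195 and 2634. Mki67 stood at 71.5 CPM inside and 159 outside, and the proliferation list at 2241 and 3192 CPM. These are sums with both libraries pooled, and the spread between cells was not taken into account.

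The members also lay near each other in genes the rule did not use. With Adm, Ero1l and the HIF and glycolysis lists left out of the variable genes, 35.3% of the 15 nearest neighbours of a male member were members, against 2.93% for other cells and 5.15% of all carcinoma cells. In the female library it was 46.3%, against 9.33% and 16.7%. Of the members 13 male and 12 female had no member among their neighbours.

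Other states of the same cells, each the top 10% by its own genes over both libraries, were set against the members, 7 states in all. The Mki67 and Top2a list held 0.840% (0.102% to 3.002%) of the male members and 2.15% (1.11% to 3.72%) of the female, against 11.8% and 9.48% of the other cells. The list by the interferon genes Isg15, Ifit1 and Ifit3 held 18.5% (13.8% to 24.0%) and 18.4% (15.3% to 21.9%) of the members and 6.35% and 13.3% of the others. The list by Hmox1, which encodes heme oxygenase 1, held 10.9% and 29.7% against 1.64% and 19.1%. The list by the MHC class II genes H2-Aa, H2-Ab1 and Cd74 held 2.94% and 2.50% against 14.6% and 4.90%. The list by Sprr1a and Sprr1b, squamous envelope genes, held 12.2% (8.31% to 17.03%) of the male members against 8.63%, but 6.26% (4.40% to 8.60%) of the female members against 12.7%; that difference between the libraries was not tested. The list by Mgp, Orm1 and Ptn held 7.98% of the male members against 17.3%, and 0.179% of the female members against 0.715%. The fibrinogen list held 19.3% (14.5% to 24.9%) of the male members against 17.1%, and no female cell.

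Since few had more Adm than Ero1l, the members with the highest Adm share were set against those with the lowest within each library, 60 and 60 male and 140 and 140 female cells, a split and a choice of genes made after the data were seen. Adm was at 1897 against 41.6 CPM in the male and 1738 against 49.8 in the female library, while Ero1l was at 5866 against 5406 and 6251 against 5614. Slc2a1 was 2.43-fold (2.15 to 2.73) and 1.74-fold (1.61 to 1.87) higher in the Adm-rich cells, Vegfa 1.57-fold (1.40 to 1.76) and 1.36-fold (1.27 to 1.45), and Hspb1 3.45-fold (3.17 to 3.75) and 1.95-fold (1.82 to 2.09). Akr1c18 was lower there than in the Adm-poor members, with ratios of 0.489 (0.385 to 0.619) and 0.440 (0.388 to 0.499), and stood at 189 and 271 CPM, still above the 33.8 and 118 of the other carcinoma cells. Egln3, at 0.904 (0.819 to 0.997) and 0.993 (0.925 to 1.07), and Car9, at 1.04 (0.858 to 1.27) and 0.782 (0.612 to 0.995), were close to even or slightly lower.

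Male and female members differed from each other in part as the other cells did. Of 3823 genes with at least 50 UMIs and 50 CPM, 156 (4.08%) had at least 1.5 times the female level in the male members, and 278 (7.27%) at least 1.5 times the male level in the female members. The same held among the other carcinoma cells for 61 and 117 of these genes. Fgb, the fibrinogen beta chain, had 405 UMIs in the male members, 50.4% of them in 1 cell, and 0 in the female members, which allows up to 3 counts. Trf, transferrin, stood at 86.0 CPM in the male and 7.90 in the female members, and at 45.7 and 9.63 in the other cells. Car9 stood at 375 and 96.4 in the members and at 92.0 and 29.4 in the other cells. On the female side Gjb2, which encodes connexin 26, stood at 74.6 CPM against 12.2 in the male members, and Nt5e, the ectoenzyme CD73 that makes adenosine, at 263 against 76.3. Pdgfb stood at 154 in the female against 34.6 in the male members, and at 193 against 79.1 in the other cells. Lists were counted here over genes with at least 20 UMIs in the members of both libraries together. Of 20 intracellular HIF targets 5 were higher in the male members and 0 in the female members. It was 3 and 1 of the 13 ligands, and 1 and 1 of the 15 genes of oxygen sensing and HIF activity. The 4.08% and 7.27% hold for the higher minimum, and the share of all genes at the lower one was not counted. With 1 library of each sex these differences cannot be told apart from differences between the 2 libraries.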

How the data were processed

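Single cells of MB49 tumours had been captured on the BD Rhapsody microwell system, per the labels' protocols. CASAVA 1.8, UMI-tools, Seurat and the build mm10 are named in the submitters' processing notes. The aligner, the cell calling and the treatment of doublets were not given in the sources used here. Per gene and cell, the deposited values are UMI counts, whole numbers and not normalized. Barcodes carry serial names, so barcodes shared between libraries could not be counted.

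Members, gene lists and rules were chosen with earlier results of these data known. UMIs were summed over cells and divided by the summed total (Python 3.11.15, numpy 2.4.6, scipy 1.17.1, pandas 2.3.3). Genes of the rule, mitochondrially encoded, cytosolic ribosomal and haemoglobin genes were left out of the gene counts. Calls needed a 1.5-fold ratio in both libraries. Ratios took 3 counts in place of a 0, and a gene with 0 member UMIs was never called higher. Neighbours used 30 principal components of 2000 variable genes (scikit-learn 1.9.0). No doublet caller was run; an alternative left out the 5% deepest cells. Genes named were the 20 highest and 10 lowest by the library nearer to 1, Vegfa, Akr1c18, and called or abundant members of the 29 lists; others were chosen after their values were seen. The computation of ratios and intervals was tested on simulated data with known folds.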

Additional observations from a re-analysis of the deposited data

How the results depend on the processing

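No paired analysis was possible because each group is 1 library and no result comes from a test. The 1.5-fold counts stayed within 1.5 times of 211 higher and 362 lower with the top 5% or 20%, a cut within each library, thinning, 5000 UMIs, 10% mitochondrial UMIs, Ero1l alone, means over cells, totals without mitochondrial genes, Adm and Ero1l, and without the deepest cells. With members chosen by Adm alone they were 133 and 172. Without cells that had Mki67 or Top2a UMIs, 226 genes were lower. From 10 UMIs and 10 CPM they were 379 and 995. Genes different between male and female members, 434 in all, came to 702 after thinning, 874 without the cells with Mki67 or Top2a, and 1480 from 10 UMIs and 10 CPM. The cause of these shifts was not tested, beyond the larger number of genes at the lower minimum.

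The share of carcinoma cells that were members was 2.36% (male) and 8.64% (female) at the top 5%, 12.1% and 30.8% at the top 20%, and 10.0% and 10.0% by construction with a cut in each library. It was 5.998% in the male library after thinning, and 6.04% and 14.4% without the cells with Mki67 or Top2a. The female neighbour share was 49.1% with 5 neighbours.

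Of 744 ratios of the named genes under these alternatives 8 changed direction, and of 1364 ratios of other named list genes 4 did. Without the cells with Mki67 or Top2a, the log2 ratio was 0.89 for Pbk, 0.26 for Tyms, 0.56 for Aurkb, 0.23 for Rrm2 and 0.27 for Cxcl2 in the male library and 0.067 for Aurkb, 0.18 for Mcm5, 0.26 for Rrm2, 0.11 for Nuf2 and 0.46 for Il33 in the female, all above 0, and -0.31 for Ifit1 in the male. Of these values only those of Cxcl2 and Il33 had intervals that did not span 0. By Adm alone Col1a2 was 0.53 in the female library. Medians of short marker lists changed sign: neutrophil -0.034 (female) and endothelial 0.0061 (male) at the top 5%, endothelial 0.41 after thinning and 0.83 without the cells with Mki67 or Top2a (male), and lymphocyte 0.22 and fibroblast 0.53 by Adm alone (female).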

Other observations

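Most of the adrenomedullin and VEGF receptor genes looked at were low in the carcinoma cells and higher in the few cells of the same sort with endothelial markers. Cells outside the carcinoma set with at least 5 UMIs of Pecam1, Cdh5, Tek and Egfl7 numbered 11 in the male and 16 in the female CD45-negative library, a rule chosen with these values in view. Calcrl, the adrenomedullin receptor, stood at 104 CPM in them (6 UMIs, Poisson interval 38.2 to 227) in the male and at 104 (14 UMIs, 56.8 to 174) in the female library, against 1.39 and 1.25 CPM in the carcinoma cells. Its partner Ramp2 stood at 1007 and 438 CPM, against 1.68 and 1.54. Kdr, the main receptor of Vegfa, stood at 1475 and 423 CPM against 0.134 and 0.213, and Flt1, which also binds Pgf, at 3211 and 1431 against 1.63 and 2.96. Another partner of Calcrl, Ramp1, was the exception, at 88.5 and 87.5 CPM in the carcinoma cells, and at 76.7 and 76.6 CPM in the Adm Ero1l high cells. In the CD45-positive libraries Ramp3 stood at 103 and 101 CPM.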
